A study of Mus musculus with 6 samples.

Results

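Semaphorins, plexins and ephrins are surface molecules that steer cells through direct contact, and 8 of their genes were examined in B cells of the Peyer's patch. The genes, Sema4a, Sema4b, Sema4d, Sema7a, Plxnb2, Plxnd1, Efnb1 and Ephb4, were chosen by name as guidance molecules used between B and T cells, and all 8 were found among the 39179 Ensembl gene identifiers of the data. Germinal center (GC) B cells (Fas+ GL7+) and naive, or resting, B cells (Fas- GL7-) had been sorted from Peyer's patches of WT C57BL/6 female mice aged 12 wk. RNA-Seq was made on 3 pools of each population, and each pool held cells of 5 littermate mice. Neither gate used IgD or a memory marker, so that the population labelled naive was defined by the absence of Fas and GL7 on B cells. A pool averages over its mice, and p-values therefore describe the spread between pools.

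Semaphorins are ligands built around a Sema domain, and plexins are their main receptors, whose cytoplasmic part acts on small GTPases of the Ras and Rap families. Class 4 semaphorins span the membrane, while Sema7a is held by a lipid anchor. Ephrins are membrane-bound ligands of the Eph receptor tyrosine kinases, and both partners of a pair can signal into their own cell. In GCs, B cells meet follicular helper T cells through such contacts, and ephrin-B1 and plexin B2 are known as surface molecules of GC B cells.

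Levels are given as TPM, the share of a gene's transcripts in a pool, which is per length and can be compared between genes, and were rescaled from the deposited FPKM. Differences are on the log2(TPM + 1) scale as GC minus naive, with the standard error (SE) and the Benjamini-Hochberg adjusted p of limma over the 12785 genes that reached 1 TPM in 3 or more pools. Depth, estimated from the steps between low values, was between about 9700000 and 16100000 reads per pool. The highest estimate, for naive replicate 2, had the weakest fit of all pools, with 71.7% of low values within 0.2 of a whole read. Fas followed the sort, with 114 ± 5.55 TPM in GC and 3.22 ± 0.314 TPM in naive pools (SD, n = 3 each). Markers of T cells summed to at most 3.68 TPM in any pool, and the 6 stromal and follicular dendritic cell markers to at most 1.38 TPM. The 7 intestinal epithelial markers summed to 58.5 to 91.8 TPM in naive and 27.5 to 47.8 TPM in GC pools. Of these, Vil1, Krt20, Epcam and Krt8 were called lower in GC pools and Krt18 higher (means of 3.23 and 1.83 TPM), while Krt19 and Cdh1 overlapped. Myeloid and dendritic cell markers (7 genes) summed to 44.8 to 50.2 TPM in GC and 11.2 to 16.3 TPM in naive pools but went both ways. Flt3 (means of 31.4 and 1.24 TPM) and Cd68 (13.1 and 5.88 TPM) were called higher in GC pools, Emr1, Itgam and Lyz2 lay lower in all GC pools, and Csf1r and Itgax overlapped. Their part in the members that rose was not tested.

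The levels of 7 of these genes differed between GC and naive B cells. Efnb1, Plxnb2 and Sema7a were higher in GC B cells, and Sema4b, Plxnd1, Sema4a and Sema4d were lower. Thus, 3 of the 7 members that passed the filter were called higher at an adjusted p under 0.05, where 35.5% of all genes tested were, and 4 were called lower, where 30.1% of all genes were. A call in either direction was made for 65.6% of the genes tested, and the pools of both populations did not overlap in 70.7% of them, so that a call by itself was the common outcome. The size of the differences varied more. Efnb1 and Plxnb2 changed by over 4 log2 units, as did 1.92% of the genes tested, and Sema4b by over 2, as did 9.61%. The eighth member, Ephb4, did not pass the filter. Plxnd1 passed it through naive pools only, where it was higher, so the direction of its call is no separate result. In bulk RNA, fewer expressing cells and less RNA per cell cannot be told apart.

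**Figure D1:**
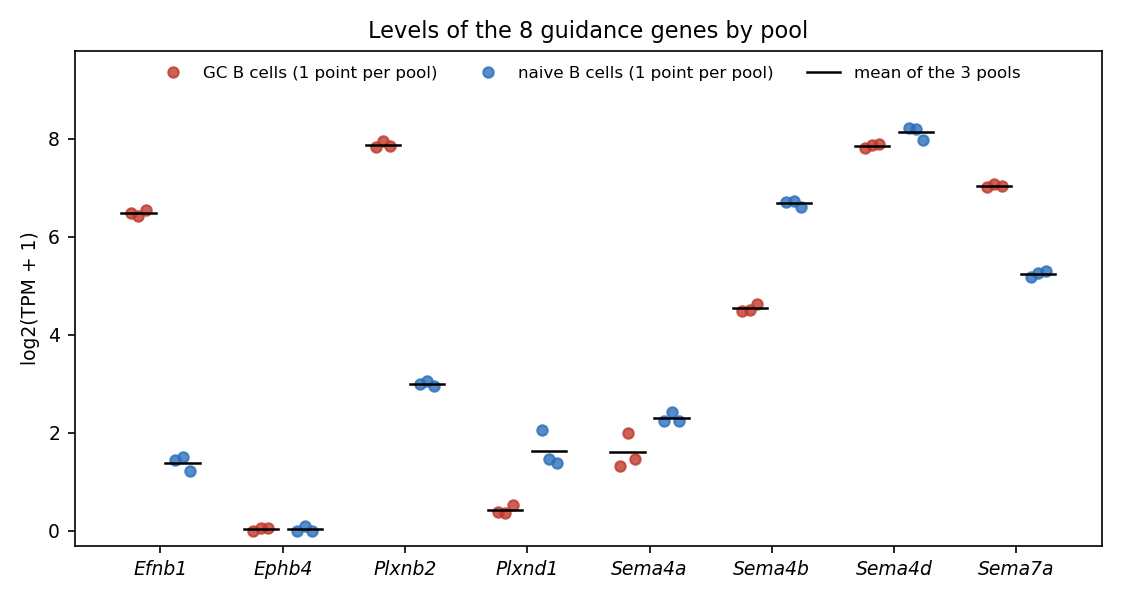
Level of each of the 8 genes in log2(TPM + 1), with 1 point per pool (red, GC B cells; blue, naive B cells) and a black line at the mean of the 3 pools. Efnb1, Plxnb2 and Sema7a lie higher in all GC pools, Sema4b, Plxnd1, Sema4a and Sema4d higher in all naive pools with smaller gaps for the last pair, and Ephb4 lies at or near 0 in all 6.

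Efnb1 (ENSMUSG00000031217; chrX:99136061-99149022, GRCm38.p6) encodes ephrin-B1, a transmembrane ligand of EphB receptors. Its TPM values were 88.8, 84.8 and 93.1 for GC replicates 1, 2 and 3, and 1.73, 1.85 and 1.33 for naive replicates 1, 2 and 3. All GC pools were thus far above all naive pools, and the means stood 54.4-fold apart. The log2 fold change was 5.10 ± 0.1 (SE), with an adjusted p of 2.41e-07 in limma, and Efnb1 ranked 67 among the increases by size. At the estimated depths, the naive values of Efnb1 rest on about 31 to 67 reads, and the GC values on about 1870 to 2160.

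Plxnb2 (ENSMUSG00000036606; chr15:89155546-89182018) encodes plexin B2, a receptor for class 4 semaphorins. Its level was 226, 248 and 230 TPM in the GC pools and 7.03, 7.30 and 6.82 TPM in the naive pools. The lowest GC pool was well above the highest naive pool, and the means differed 33.3-fold. Plxnb2 rose by 4.87 ± 0.06 (SE) log2 units, with an adjusted p of 7.61e-08 in limma. In GC B cells it stood at the 95.3 percentile of all genes tested by level, and in naive B cells at the 29.7 percentile.

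The 250 bases upstream of a RefSeq start site are shown for both genes that rose most and for Ephb4, the member with almost no signal, as GRCm38.p6 sequence with each CG dinucleotide in capitals. The windows are chrX:99135811-99136060 (plus strand) for Efnb1, chr15:89180789-89181038 (minus strand) for Plxnb2, where it is 1 of 2 starts listed, and chr5:137349859-137350108 (plus strand) for Ephb4.
Efnb1: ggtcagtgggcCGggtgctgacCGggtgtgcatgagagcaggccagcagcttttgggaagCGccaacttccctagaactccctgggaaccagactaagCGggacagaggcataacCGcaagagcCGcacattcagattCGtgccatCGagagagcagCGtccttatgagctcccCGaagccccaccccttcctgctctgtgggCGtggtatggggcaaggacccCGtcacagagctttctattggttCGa
Plxnb2: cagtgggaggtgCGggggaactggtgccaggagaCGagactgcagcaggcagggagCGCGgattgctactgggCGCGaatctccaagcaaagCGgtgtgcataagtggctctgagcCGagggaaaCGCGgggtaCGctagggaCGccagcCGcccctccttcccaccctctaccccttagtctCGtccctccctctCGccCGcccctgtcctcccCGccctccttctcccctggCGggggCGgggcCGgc
Ephb4: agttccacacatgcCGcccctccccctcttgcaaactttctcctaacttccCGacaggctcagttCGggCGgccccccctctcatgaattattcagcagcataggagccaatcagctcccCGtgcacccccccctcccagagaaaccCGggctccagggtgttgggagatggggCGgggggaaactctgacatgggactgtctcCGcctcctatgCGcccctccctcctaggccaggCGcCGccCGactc
The windows hold 13, 20 and 12 CG dinucleotides, respectively, against a median of 6 (quartiles 2 and 16) over 32851 RefSeq windows of this length. The GC box GGGCGG, searched on both strands, was found at 4 positions for Plxnb2, at 4 for Ephb4 and at none for Efnb1, and 32.7% of all windows hold it. None of these 3 windows holds the E box CACGTG (6.02% of all windows do), the E box CAGGTG (17.2%), the E box CAGCTG (13.0%) or the spaced motif TTCNNNGAA (7.02%), searched on both strands. The window of the other Plxnb2 start, chr15:89173952-89174201, holds 13 CG dinucleotides, 3 GC boxes and 1 CAGGTG. CG counts above the median thus lay upstream of these 3 members, with high and with almost no RNA alike. The windows of Sema4d, which was high in both populations, hold only 1 or 2 CG dinucleotides. A match of letters is only a description.

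Sema7a (ENSMUSG00000038264; chr9:57939596-57962865), the lipid-anchored semaphorin also called CD108, was the third member higher in GC B cells. Its TPM was 129, 134 and 131 in GC replicates 1, 2 and 3, and 35.5, 37.2 and 38.7 in the naive pools. The 3.54-fold difference in means was much larger than the spread in either population (SD 2.92 and 1.63 TPM, n = 3 each). Sema7a rose by 1.80 ± 0.052 (SE) log2 units, with an adjusted p of 7.48e-07 in limma.

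Sema4b (ENSMUSG00000030539; chr7:80186870-80226646), a transmembrane class 4 semaphorin, showed the opposite pattern. Its level was 21.5, 21.7 and 23.7 TPM across GC replicates and 104, 105 and 97.2 TPM across naive replicates. No pool came near those of the other population, and the naive mean was 4.58-fold the GC mean. Sema4b fell by 2.15 ± 0.062 (SE) log2 units in GC B cells, with an adjusted p of 7.64e-07 in limma. Between these 2 semaphorins the order therefore turned, and the ratio of Sema4b to Sema7a was 0.170 ± 0.00943 in GC and 2.75 ± 0.217 in naive pools (SD, n = 3 each). A two-sided exact permutation test of this ratio gave p = 0.1, the smallest value that 3 pools against 3 allow.

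Sema4d (ENSMUSG00000021451; chr13:51685529-51793678), known as CD100, is a semaphorin of lymphocytes that binds plexin B1, plexin B2 and CD72. It was high in both populations, at 224, 235 and 237 TPM across GC replicates and 298, 292 and 253 TPM in the naive pools. The lowest naive pool was close to the highest GC pool, but the groups did not overlap. The log2 fold change was -0.27 ± 0.069 (SE; adjusted p = 0.0128 in limma), so that the difference was called but small, and Sema4d ranked 9173 of the genes tested by size of change.

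Sema4a (ENSMUSG00000028064; chr3:88435959-88461182), a class 4 semaphorin known from dendritic cells and T cells, was weakly expressed. Its level was 1.52, 3.02 and 1.77 TPM in GC replicates 1, 2 and 3, and 3.77, 4.37 and 3.77 TPM in naive replicates 1, 2 and 3. GC replicate 2 lay between the remaining GC pools and the naive pools. The log2 fold change was -0.71 ± 0.2 (SE), with an adjusted p of 0.0187 in limma. This call depended on single pools, since the adjusted p was 0.0537 without GC replicate 1, 0.0575 without GC replicate 3 and 0.0625 without naive replicate 2.

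Plxnd1 (ENSMUSG00000030123; chr6:115954811-115995339), a plexin that binds Sema3e and Sema4a, had 0.303, 0.291 and 0.446 TPM across GC replicates, or about 14 to 21 reads. In naive replicates 1, 2 and 3 it was at 3.17, 1.77 and 1.61 TPM. Every naive pool was above every GC pool, although naive replicate 1 stood apart from the other naive pools. It fell by 1.21 ± 0.21 (SE) log2 units, with an adjusted p of 0.00243 in limma, and by 2.58 with a pseudocount of 0.01, since a pseudocount of 1 shortens differences between low values. The epithelial marker sum was highest in naive replicate 1 (91.8 TPM), the pool with most Plxnd1, and among GC pools in GC replicate 2 (47.8 TPM), the pool with most Sema4a. Naive replicate 2 had the lowest epithelial sum of the naive pools (58.5 TPM). Among naive pools, Sema4a was highest in replicate 2 (4.37 TPM) and Sema4d in replicate 1 (298 TPM). Sema4b was nearly equal in replicates 1 and 2 (104 and 105 TPM). The part of epithelial RNA in the 4 lower members was not tested.

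Ephb4 (ENSMUSG00000029710; chr5:137350109-137374522), an Eph receptor known from veins, was listed at 0 in GC replicate 1 and naive replicates 1 and 3. The other pools held 0.0415 and 0.0418 TPM in GC replicates 2 and 3 and 0.0684 TPM in naive replicate 2, or about 1 to 3 reads each. A difference between the populations was not detectable at this depth. Of the endothelial markers, Kdr was listed at 0 in every pool and Tek in 5 of 6, and Cdh5 reached at most 1.05 TPM, while Pecam1, which B cells also express, had a mean of 23.3 TPM for GC and 126 TPM for naive pools.

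**Figure D2:**
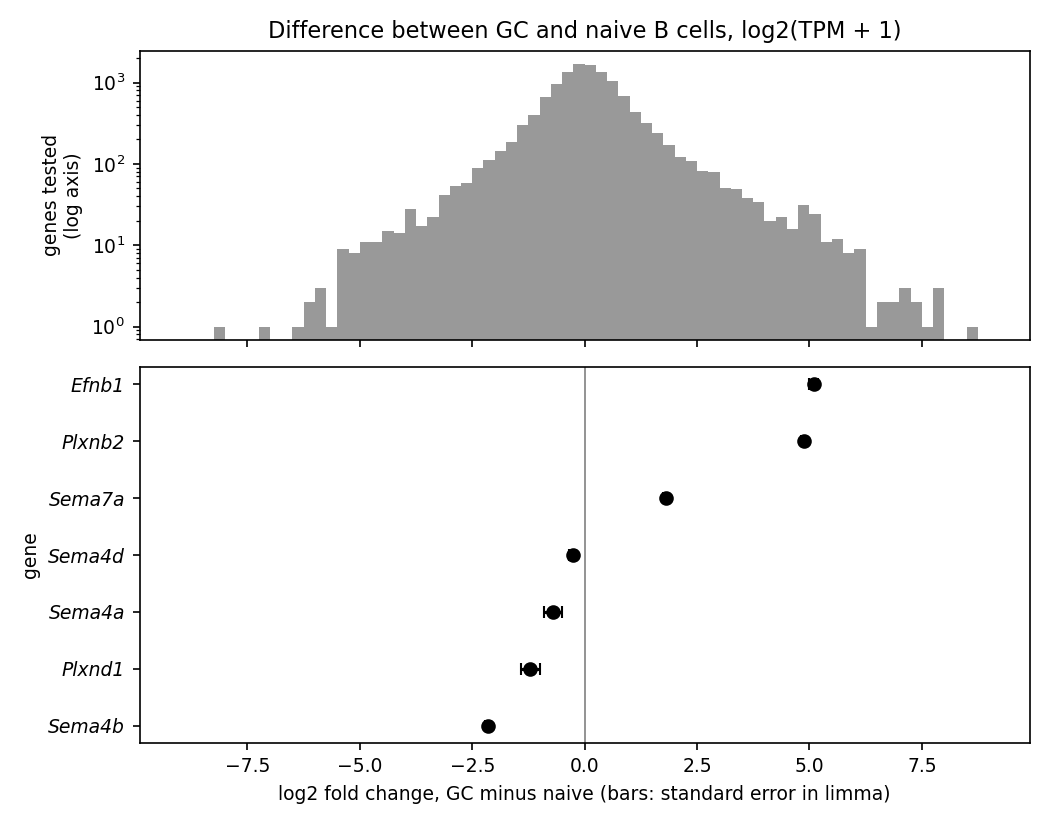
Top, number of genes (log axis) by log2 fold change of TPM + 1 between GC and naive B cells, for all 12785 genes tested. Bottom, the same difference for the 7 members that passed the filter, with the SE in limma as bars. Efnb1 (5.10) and Plxnb2 (4.87) lie in the right tail, Sema4b (-2.15) on the left, and Sema4d (-0.27) near the center.

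The order of the members by level differed between the populations. In GC B cells it ran Plxnb2, Sema4d, Sema7a, Efnb1, Sema4b, Sema4a, Plxnd1 and Ephb4. Plxnb2 and Sema4d did not differ beyond their spread there, as their pools overlapped (226 to 248 and 224 to 237 TPM), while all later neighbors were separate in 3 of 3 pools. In naive B cells the order was Sema4d, Sema4b, Sema7a, Plxnb2, Sema4a, Plxnd1, Efnb1 and Ephb4. The ranges of Plxnd1 and Efnb1 overlapped (1.61 to 3.17 and 1.33 to 1.85 TPM), and no other neighbors did.

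The share of each family's RNA held by single members differed between the populations. The 20 semaphorin genes of the mouse together reached 394 ± 10.9 TPM for GC and 429 ± 27.6 TPM in naive pools (SD, n = 3 each; two-sided exact permutation test, p = 0.3). A difference in the total was not shown, but its makeup differed. Sema4d held 58.9% ± 0.278 of it in GC and 65.4% ± 1.48 in naive pools. Sema7a held 33.4% ± 0.428 in GC and 8.68% ± 0.94 in naive pools, and Sema4b 5.66% ± 0.254 and 23.8% ± 0.624. For plexins the total itself differed. The 9 plexin genes summed to 256 ± 11.2 TPM in GC and 39.8 ± 2.64 TPM in naive pools. Plxnb2 made up 91.4% ± 1.41 of this sum in GC pools and 17.7% ± 0.81 in naive pools, where Plxnc1 led with 55.2% ± 0.925 (SD, n = 3 for each). For each of these shares and for the plexin sum the exact permutation test gave p = 0.1, the smallest possible.

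**Figure D3:**
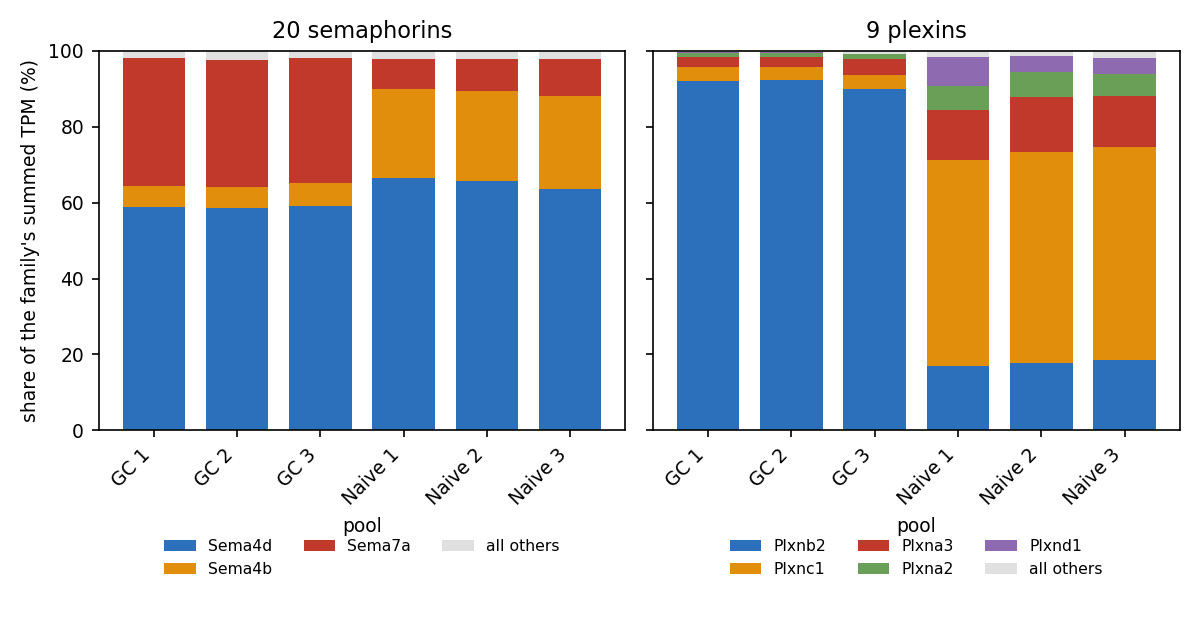
Share (%) of the summed TPM of all 20 semaphorin genes (left) and all 9 plexin genes (right) held by single genes in each of the 6 pools, as stacked bars. Next to Sema4d, Sema7a has the larger share in GC pools and Sema4b in naive pools, and Plxnb2 holds 89.8% to 92.4% of plexin RNA in GC pools against 16.9% to 18.5% in naive pools.

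Among ephrins and Eph receptors, 1 gene of each family, Efnb1 and Ephb2, passed the filter, and both were higher in GC B cells. The 9 ephrin identifiers summed to 91.5 ± 4.34 TPM in GC and 3.96 ± 0.968 TPM in naive pools (SD, n = 3 each), and Efnb1 made up 97.2% ± 0.195 of the sum in GC pools and 42.2% ± 8.18 in naive pools. None of the 8 other ephrin identifiers passed the filter, and their highest mean was 1.18 TPM (Efna1 in naive B cells, against 0.489 TPM in GC B cells). Among 13 other Eph receptors only Ephb2, an EphB receptor that binds B-class ephrins, passed the filter. Ephb2 had 9.37, 9.26 and 9.91 TPM across GC replicates and 0.0547 TPM for naive replicate 2, and was listed at 0 for naive replicates 1 and 3. It was called higher (log2 fold change 3.37 ± 0.11 SE, adjusted p = 1.25e-06 in limma). Ephb2 reached 1 TPM in GC pools only. It thus passed the filter through the population where it was high, and its direction is no separate result. Ligand and receptor RNA of 1 ephrin-B and EphB pair was thus present together in GC pools. In each GC pool Efnb1 was above Ephb2.

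The receptors that Sema4d can bind were ordered differently in both populations. Cd72, a lectin-like inhibitory coreceptor of B cells, had 111, 100 and 114 TPM across GC replicates and 1226, 1302 and 1221 TPM in the naive pools. It fell by 3.52 ± 0.059 (SE) log2 units, with an adjusted p of 1.55e-07 in limma. While Sema4d itself moved little, the ratio of Sema4d to Cd72 was 2.15 ± 0.171 in GC and 0.225 ± 0.0176 in naive pools. The ratio of Sema4d to Plxnb2 was 0.991 ± 0.0407 in GC and 39.8 ± 2.57 in naive pools (SD, n = 3 for each; exact permutation test, p = 0.1 for each ratio, the smallest possible). Cd72 exceeded Plxnb2 174- to 179-fold in naive pools, and Plxnb2 was the higher of both in all 3 GC pools. Plxnb1, the plexin that binds Sema4d most tightly, was low, at 0.634, 0.457 and 1.0 TPM for GC and 0.108, 0.0547 and 0.0645 TPM in naive pools, and did not pass the filter.

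**Figure D4:**
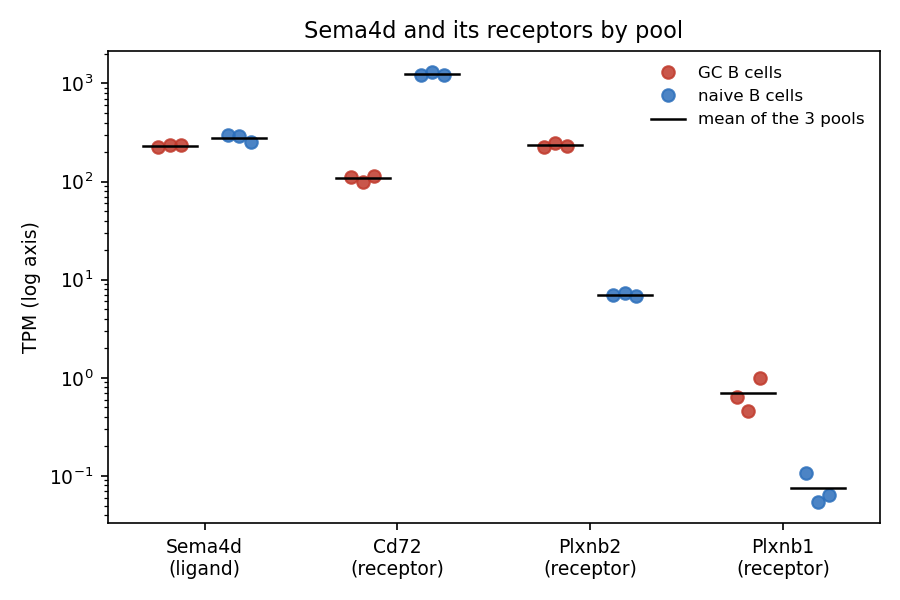
TPM (log axis) of Sema4d and of the receptor genes Cd72, Plxnb2 and Plxnb1, with 1 point per pool (red, GC; blue, naive) and a line at the mean of the 3 pools. Sema4d stays between 224 and 298 TPM, whereas Cd72 is higher in naive pools and both plexins are higher in GC pools.

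Receptors of Sema7a and Sema4a also differed between the populations. Itgb1, the beta subunit of integrins that bind Sema7a, had 41.3, 44.5 and 44.0 TPM across GC replicates and 14.4, 14.5 and 13.5 TPM in the naive pools (log2 fold change 1.55 ± 0.066 SE, adjusted p = 3.76e-06 in limma). The ratio of Sema7a to Itgb1 was 3.04 ± 0.067 in GC and 2.63 ± 0.212 in naive pools (SD, n = 3 each), so that the ratio differed much less than either gene (exact permutation test, p = 0.1, the smallest possible). Itga1, the alpha subunit of this pair, did not pass the filter. Plxnc1, the plexin that binds Sema7a, was in contrast lower in GC B cells, with 9.05, 9.15 and 10.1 TPM against 22.5, 22.7 and 20.6 TPM (log2 fold change -1.14 ± 0.082 SE, adjusted p = 4.04e-05 in limma). Timd2, a receptor of Sema4a, had 9.14, 9.33 and 7.27 TPM across GC replicates and 0.324, 0.479 and 0.297 TPM in naive pools (2.80 ± 0.14 SE, adjusted p = 7.52e-06 in limma, and 4.53 with a pseudocount of 0.01). Timd2 passed the filter through GC pools only, where it was higher. It was named for its role after its values were seen, as were Plxnb1, Itga1, Efna1, Sema5a, Sema4c, Plxna2 and Plxna3.

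The other semaphorins were low. Of 16, only Sema4f and Sema5a passed the filter. Sema4f did so through GC pools only and Sema5a through naive pools only, in each case where the gene was higher. Sema4f had 2.51, 3.24 and 3.61 TPM across GC replicates, whereas every naive pool listed it at 0 (adjusted p = 4.59e-05 in limma). Sema5a was at 0.581 ± 0.202 TPM in GC and 2.94 ± 0.196 TPM in naive pools (SD, n = 3 each; adjusted p = 2.69e-04 in limma), with a log2 fold change of -1.32, or -2.37 with a pseudocount of 0.01. Sema4c, a ligand of plexin B2 known from follicular helper T cells, had at most 0.289 TPM in any pool. Among the 9 other plexins and neuropilins, Plxna2 and Plxna3 were tested besides Plxnc1 and were not called, with log2 fold changes of 0.19 (adjusted p = 0.21) and 0.42 (adjusted p = 0.0968) in limma.

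Genes that carry signals from plexins were mostly expressed and moved in both directions. Of 19 identifiers listed, 15 passed the filter, 8 were called higher in GC B cells and 5 lower (35.5% and 30.1% of all genes tested) and 2 were not called, with a median log2 fold change of 0.33 (0.031 over all genes tested). Arhgef12, a GTPase exchange factor that binds B plexins, rose by 1.9 ± 0.1 (SE) log2 units, with means of 15.1 TPM for GC and 3.31 TPM for naive pools. Its relative Arhgef11 fell by 0.63 ± 0.11 (SE). The Rap GTPases also moved apart, as Rap1a rose by 1.22 ± 0.07 and Rap1b fell by 0.68 ± 0.04 (SE). Mical3 (ENSMUSG00000051586), of a family of oxidoreductases that act on actin, rose by 1.61 ± 0.18, and a further identifier with the same symbol rose as well, so that reads may have been divided between both. The kinase Fes (1.08 ± 0.08), the microtubule-binding Dpysl2 (0.64 ± 0.097), the adaptor Gipc1 (0.41 ± 0.068) and Rac1 (0.33 ± 0.052) also rose. Rras, a direct target of plexin GAP activity, fell by 0.62 ± 0.084 and the GTPase-activating protein Sh3bp1 by 0.78 ± 0.11 log2 units (SE). Adjusted p-values in limma of these 11 calls were between 1.02e-05 and 0.0025. Rhoa fell by only 0.10 ± 0.032 (adjusted p = 0.0295 in limma), and this call was lost under the replicate block (adjusted p = 0.107), with eBayes without a trend (0.146) and without GC replicate 1, 2 or 3 or naive replicate 1 (0.0769 to 0.0922). Mical1 was at 204 ± 5.70 TPM in GC and 202 ± 12.8 TPM in naive pools and was not called (adjusted p = 0.849 in limma).

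Genes that act downstream of ephrins and Eph receptors formed a shorter list. Of 11 listed, 8 passed the filter, 1 was called higher and 2 lower (35.5% and 30.1% of all genes tested), and their median log2 fold change was -0.06. Vav3, a GTPase exchange factor, had 0.0827, 0.595 and 0.0418 TPM across GC replicates and 5.48, 4.49 and 4.26 TPM in the naive pools (log2 fold change -2.23 ± 0.21 SE, adjusted p = 1.24e-04 in limma, and -5.05 with a pseudocount of 0.01). Vav3 passed the filter through naive pools only, where it was higher. Its relative Vav2 stood at 67.3 ± 3.62 TPM in GC and 63.6 ± 2.06 TPM in naive pools (SD, n = 3 each) and was not called. Adam10, a protease that sheds ephrins and semaphorins, rose by 0.29 ± 0.056 (SE; adjusted p = 0.00394 in limma). The adaptor Nck1 fell by 0.24 ± 0.074 (SE; adjusted p = 0.0255 in limma, 0.0509 under the replicate block). This call was also lost without GC replicate 1 (adjusted p = 0.063), GC replicate 2 (0.081), naive replicate 1 (0.0778) or naive replicate 3 (0.0506). Rasa1 and Sdcbp, with means between 35.2 and 97.8 TPM in GC B cells, were not called.

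**Figure D5:**
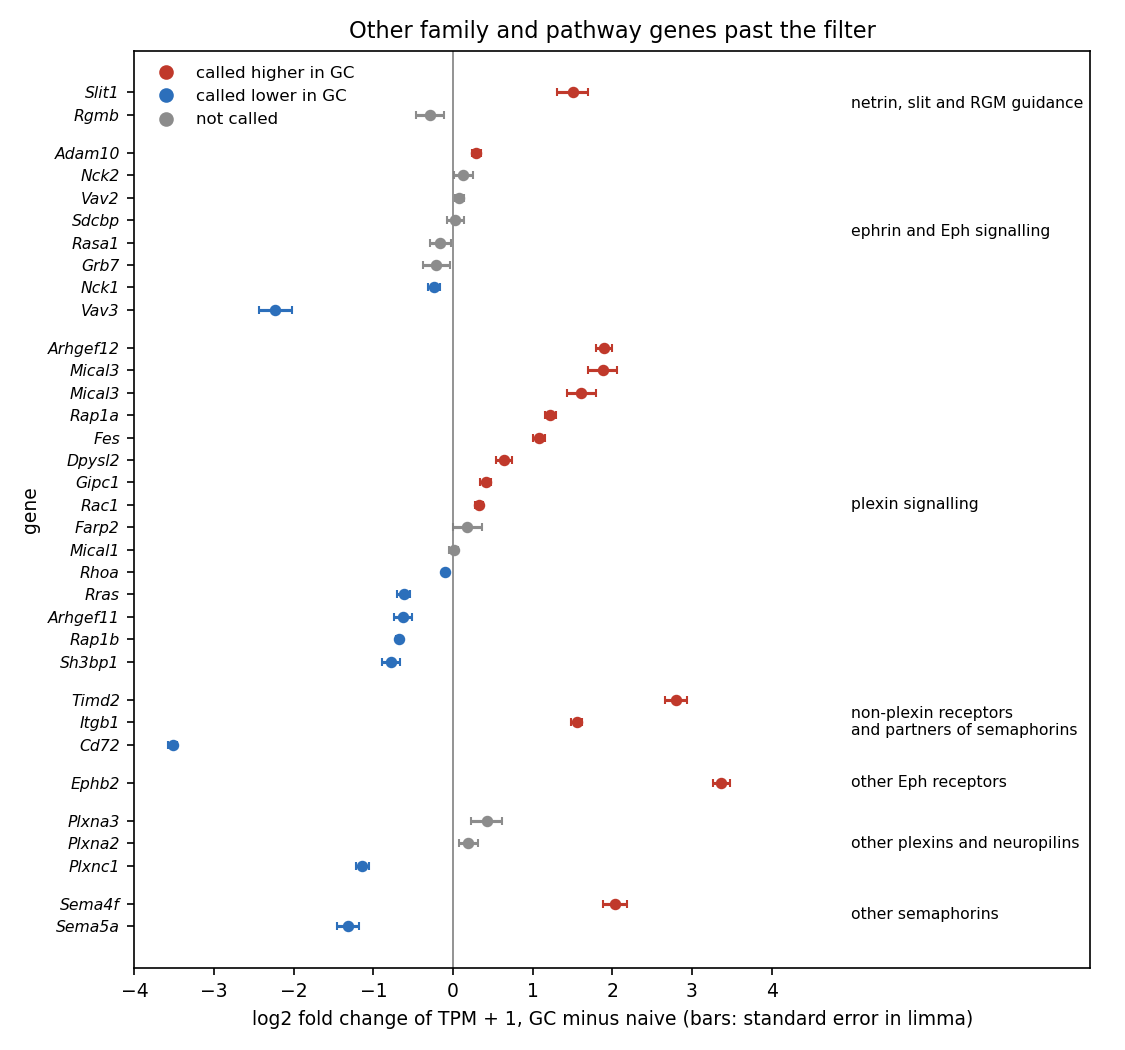
Log2 fold change of TPM + 1 between GC and naive B cells for the 34 further family and pathway identifiers that passed the filter, grouped by list, with the SE in limma as bars (red, called higher in GC; blue, called lower; gray, not called). Cd72 (-3.52) and Ephb2 (3.37) lie farthest from 0 with the pseudocount of 1 used here, an order that changes with a pseudocount of 0.1 (Ephb2 at 6.38, Sema4f at 4.99, Timd2 at 4.23, Vav3 at -4.20, Cd72 at -3.53), and genes of the plexin signaling list lie on both sides of 0.

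Genes with the most similar profiles were sought by the root mean square difference in log2(TPM + 1) over the 6 pools. Closest to Efnb1 were Kif22 (0.131) and Nek2 (0.157), and closest to Plxnb2 were Uhrf1 (0.207) and Cdc20 (0.436). Ddx19a (0.101) resembled Sema7a, and Ptp4a2 (0.0496) and Tmbim6 (0.148) resembled Sema4d. For Sema4b these were 9930111J21Rik2 (0.131) and Stk10 (0.158), for Sema4a Zfp846 (0.179) and Apol10a (0.181), and for Plxnd1 Gk5 (0.149) and Fam55d (0.215). Within 0.2 log2 units there were 16 genes each for Sema4d and Sema7a, 4 each for Efnb1 and Sema4b, 8 for Sema4a, 1 for Plxnd1 and 0 for Plxnb2. With 2 populations, such likeness reflects mainly a shared level and difference.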

How the data were processed

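RNA-Seq of 6 pools (3 GC, 3 naive) was analyzed from 1 table. The authors trimmed adapters with cutadapt 1.9, ran RSEM 1.2.25 against mouse transcripts (NCBIm38 v75) and deposited FPKM per gene and pool, with no further normalization between pools stated. The submitters' processing notes also list edgeR without its role, so whether the FPKM were scaled between pools is not given in the sources used here. FPKM was scaled to the same total in each pool to give TPM, and 33398 of 39179 identifiers received a symbol. The 2 populations were compared with limma 3.58.1 (eBayes with a trend) in R 4.3.3 on log2(TPM + 1), for genes reaching 1 TPM in 3 or more pools, and the fit was tested on simulated data. Ratios and shares were compared with exact permutation tests (scipy 1.17.1, Python 3.11.15). Depth was estimated from FPKM steps, where 71.7% to 77.3% of low values lay within 0.2 of a whole read, so reads per gene, which also assume the longest annotated transcript, are rough and counts were not tested. The depth was chosen to bring these same values near whole reads, so their share is no independent check of it. Gene positions and upstream sequences are from RefSeq (GRCm38.p6), which shares only the major assembly with the authors' transcriptome. Transcript lengths for the depth and read estimates came from a different annotation, GENCODE. Upstream windows were found for all 8 members. No batch is named in the sources used here.

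The members and gene lists were chosen with earlier results of these data known. Named genes were the 8 members, listed pathway genes whose mean reached 10 TPM in either population or the largest called change in their list, and the 2 genes nearest to each member by profile; a few items are not reported here. Alternatives covered pseudocounts of 0.1 and 0.01, no filter and a filter of 5 TPM, FPKM as deposited, median-of-ratios and quantile scaling, eBayes without a trend, the replicate number as a block, and leaving out each pool. Pool numbers were not treated as pairs, since the methods state no pairing of pools. Deviations of same-numbered GC and naive pools correlated at only 0.083, 0.022 and 0.046 across genes.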

Additional observations from a re-analysis of the deposited data

How the results depend on the processing

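Over 42 results, 623 alternatives were computed, and in 593 neither direction nor call changed or, for counts, the value stayed within 1.5 times. Efnb1 (4.88 to 5.77), Plxnb2 (4.76 to 5.05), Sema7a (1.68 to 1.83), Sema4b (-2.24 to -2.12), Sema4d (-0.36 to -0.23) and Plxnd1 (-2.58 to -1.0) stayed called with their direction in all alternatives in which they were tested. With a filter of 5 TPM, 2 members were called lower and 3 were not called, because Sema4a and Plxnd1 were no longer tested. When each pool was left out in turn, between 1 and 2 members were not called, since Sema4a lost its call without GC replicate 1, GC replicate 3 or naive replicate 2 (log2 fold changes of -0.57, -0.64 and -0.65).

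With the replicate number as a block, 7960 genes were called instead of 8392, all 7 tested members kept their calls, and each GC pool correlated best with the naive pool of its number, which is only a hint. Among genes without a call, small differences changed sign. Mical1 was at -0.04 with FPKM as deposited, -0.02 with median-of-ratios scaling, -0.11 with quantile normalization, and between -0.03 and 0.06 when a pool was left out. Vav2 was at -0.05 with quantile normalization, and Sdcbp at -0.02 with FPKM as deposited, -0.11 with quantile normalization and between -0.05 and 0.15 when a pool was left out. Plxna3 became called without GC replicate 1 (0.58, adjusted p = 0.0419). The scalings moved the median of all genes by at most 0.088 log2 units. Calls of Rhoa and Nck1 depended on single pools. Fitted values of genes at or near 0 in naive pools depended on the pseudocount. With pseudocounts of 1, 0.1 and 0.01, Ephb2 was at 3.37, 6.38 and 9.0 and Sema4f at 2.03, 4.99 and 8.27. With FPKM as deposited, Ephb2 was at 2.96 and Sema4f at 1.69. Depth limits Ephb4 and the weakly expressed Plxnd1 and Sema4a most.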

Other observations

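Of the other guidance systems, the netrin, slit and RGM genes were almost silent. Only Slit1, a secreted ligand of Robo receptors, and Rgmb, a bone morphogenetic protein coreceptor, passed the filter among 17 genes listed. Slit1 did so through GC pools only, where it was higher. Slit1 had 3.02, 1.84 and 2.58 TPM across GC replicates and 0.0675, 0.205 and 0.400 TPM in the naive pools (log2 fold change 1.5 ± 0.19 SE, adjusted p = 5.42e-04 in limma, and 3.68 with a pseudocount of 0.01), and Rgmb was at 1.74, 1.62 and 1.02 TPM in GC and 1.94, 1.75 and 2.26 TPM in naive pools and was not called (adjusted p = 0.17). The other 15 genes, which include all 4 Robo receptors, had means of at most 0.211 TPM. Rgmb was named after its values were seen.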
